A study of Homo sapiens with 8 samples.

Results

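The mRNAs of the translation initiation and elongation factors were examined in human embryonic kidney HEK293 cells, as the protein-coding genes whose symbol begins with EIF or EEF. The rule found 72 genes, of which 2 were annotated only as readthrough genes joined to a neighbour. The other 70 had exons of their own and were compared with the 19473 nuclear protein-coding genes. RNA bound by myc-tagged NSun3 (3 libraries) or myc-tagged NSun6 (3 libraries), both RNA cytosine-5 methyltransferases, was sequenced by miCLIP 24 hours after transfection of the constructs, so both groups overexpressed an enzyme and no untransfected library was analysed. In miCLIP the enzyme stays bound to the cytosine it acts on and reverse transcription stops beside it, so each read start marks a candidate cytosine. For NSun3 the methods describe a mutant in which the cysteine that releases the RNA is replaced by alanine; the form of the NSun6 construct was not given in the sources used here. A further 2 samples of poly(A) RNA from HEK293 cells were treated with bisulfite, which converts cytosine but not 5-methylcytosine, and were present as 1 table without separate replicate values.

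Initiation factors bring the small ribosomal subunit, the initiator tRNA and the mRNA cap together and select the start codon, and elongation factors then deliver aminoacyl-tRNAs and move the ribosome along the mRNA. Many of these proteins come from abundant mRNAs. NSun6 is known as a methyltransferase of tRNA 3' ends, where a CTCCA sequence surrounds the modified cytosine, and NSun3 as a mitochondrial tRNA methyltransferase.

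The strongest NSun6 cytosines of these mRNAs are shown first, because most share one short sequence. Each line gives 25 bases of the GRCh37 (hg19) reference on the transcribed strand, 5' to 3', with the cytosine assigned to the read starts as the 13th base. Capitals mark CTCCA where that cytosine is its first base, and otherwise the cytosine alone. The first 8 lines passed the high-confidence threshold (over 50 reads per 1000000 reads, RPM, in at least 2 of 3 libraries), and the last 3 lay just below it.
EIF4H 3'UTR (chr7:73610019-73610043, plus): acactggcccaaCTCCAggcgtttc
EEF2 codon 592 (chr19:3978096-3978120, minus): cgtgctctgcctCTCCAagtccccc
EIF4G1 3'UTR (chr3:184052859-184052883, plus): gcctgggcccccCTCCAggatgccg
EIF3I 3'UTR (chr1:32697106-32697130, plus): aagaaggtggatCTCCAaccaggcc
EIF3L codon 265 (chr22:38270406-38270430, plus): gggcggcactccCtctacaaaatgc
EEF2 codon 628 (chr19:3977990-3978014, minus): gcccgtcaggagCtcaagcagcggg
EIF2B2 codon 325 (chr14:75475798-75475822, plus): taccctctttatCTCCAacattggt
EIF1AX 3'UTR (chrX:20145399-20145423, minus): tgaaaagatggtCTCCAgtttctga
EEFSEC codon 232 (chr3:127983522-127983546, plus): ggaccactgtttCTCCAtcaaaggc
EEF2 codon 729 (chr19:3977479-3977503, minus): gcacggcgctgcCtctatgccagtg
EIF1 3'UTR (chr17:39847531-39847555, plus): atcccctggtgtCTCCAacctgact

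Sequencing depth differed between the groups and set what could be seen. The NSun6 libraries held 305392 to 467586 reads and the NSun3 libraries 47352 to 138921, so 1 read was worth 2.14 to 3.27 RPM in NSun6 and 7.20 to 21.1 RPM in NSun3. A count of 0 allows up to 3 reads in a library, which came to 47.2 RPM on average over the NSun3 libraries. Exons of NSUN6 held 323, 428 and 323 reads in the NSun6 libraries and 0 in every NSun3 library. Exons of NSUN3 held 32, 19 and 0 reads in the NSun3 libraries and 0, 0 and 7 in the NSun6 libraries, so the library labelled NSun3 replicate 3 held no read of the NSUN3 construct or gene. Mitochondrial DNA took 24.4% to 37.6% of the NSun3 reads, with replicate 3 at 24.4%, and 8.05% to 9.56% of the NSun6 reads. In the bisulfite table the HEK293 markers were covered (mean reads per exonic cytosine of 4815 for VIM, 240.2 for NEFL, 226.9 for NEFM, 74.2 for LIN28B and 4.06 for PAX2), while PTPRC, CD3E and INS had none, MYH7 0.0376 and ALB 0.422. That the replicates came from separate cultures is not stated, so p-values measure the spread between these libraries.

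NSun6 reads fell on many translation factor mRNAs and NSun3 reads on few. Their exons held 644, 1048 and 760 reads in the NSun6 libraries, or 1988, 2241 and 2489 RPM (2239 ± 250.3, SD, n = 3). In the NSun3 libraries they held 94, 8 and 0 reads, or 676.6, 150.9 and 0 RPM. The groups did not overlap in RPM, and without NSun3 replicate 3 the NSun3 mean was 413.8 RPM. All nuclear protein-coding exons together separated as well, so this was not particular to the translation factors. Those exons held 155459 of 323935, 226148 of 467586 and 151299 of 305392 reads in NSun6. In NSun3 they held 2886 of 138921, 646 of 53024 and 592 of 47352. Reads lay on 55 of the 70 genes in at least 1 NSun6 library, on 22 genes in all 3, on 21 in exactly 2 and on 12 in exactly 1. Of all nuclear protein-coding genes 21.7% had reads in all 3 NSun6 libraries, against 31.4% of the translation factor genes. All genes include some without bisulfite coverage, such as PTPRC, and the part of this in the difference was not tested. As a share of the reads in nuclear protein-coding exons, translation factors took 0.414%, 0.463% and 0.502% in NSun6 and 3.26% (94 of 2886), 1.24% (8 of 646) and 0% (0 of 592, which allows up to 0.507%) in NSun3. Of the 94 reads of NSun3 replicate 1, 53 lay at a single position of EIF4G1.

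The reads were concentrated on a few mRNAs. EEF2 alone held 25.6% of the NSun6 RPM of the translation factors, and the leading 5 genes held 57.1%. The median over the 70 genes was 8.83 RPM, close to the 3-read floor of 8.50 RPM in NSun6. Across the 70 genes the Spearman rank correlations of RPM between pairs of NSun6 libraries were 0.67, 0.66 and 0.70, a description over genes that share the same libraries. The ranking below the leading genes therefore rests on few reads.

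**Figure D1:**
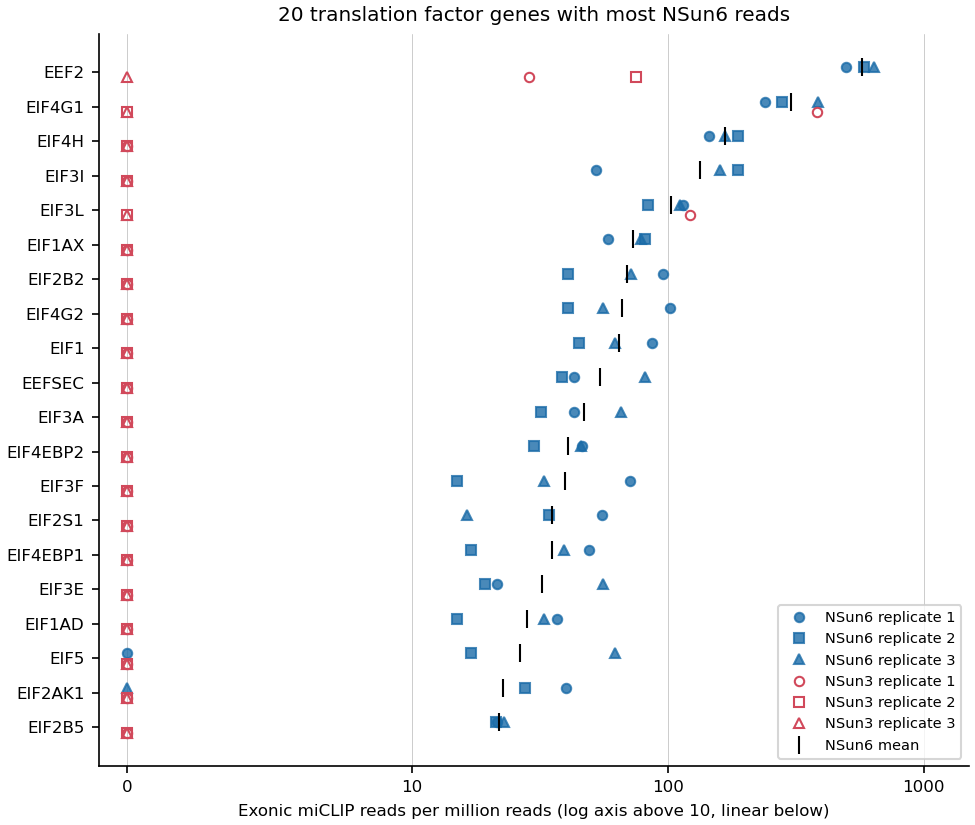
Exonic miCLIP RPM in each library for the 20 translation factor genes with the highest NSun6 mean (x axis, logarithmic above 10 and linear below; filled symbols NSun6, open symbols NSun3, bar NSun6 mean). EEF2 leads at 573.8 RPM, and open symbols above 0 appear only for EEF2, EIF4G1 and EIF3L among these 20 genes.

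Among the elongation factors, EEF2 stood apart from the rest. EEF2 encodes the GTPase that moves the ribosome by one codon after each peptide bond. It held 161, 274 and 195 reads in the NSun6 libraries (573.8 ± 71.5 RPM, SD, n = 3) and 4, 4 and 0 in the NSun3 libraries, and ranked 129th among all nuclear protein-coding genes by NSun6 RPM. Apart from the methyltransferase genes, the 6 genes with a symbol in EEF1 summed to 60.2 ± 43.2 RPM. Of this 19.3 RPM (0, 21 and 4 NSun6 reads) came from EEF1E1, which encodes a subunit of the multi-aminoacyl-tRNA synthetase complex, and the rest from genes of the eEF1 complex, which brings aminoacyl-tRNA to the ribosome. EEF1A1, which encodes its main GTPase subunit, had 0, 5 and 5 NSun6 reads, and EEF1G had none in any library although its mean bisulfite coverage was 2849 reads per exonic cytosine. Only 18.5% of 30-base stretches starting in EEF1G exons and 66.3% of those in EEF1A1 exons occurred once in the genome. The authors kept reads with a single best place, and the part of this in the counts was not tested. EEF1D, the exchange factor subunit, had 0, 8 and 4 NSun6 reads and 16, 0 and 0 NSun3 reads. EEFSEC, the factor that delivers selenocysteine tRNA, had 14, 18 and 25 NSun6 reads (54.5 ± 23.8 RPM) and none in NSun3. EEF2K, the kinase that phosphorylates eEF2, had 0, 6 and 9 NSun6 reads, and the 5 methyltransferases of elongation factors had reads for 2 genes only, summing to 2.85 RPM.

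Among the factors that recruit the mRNA, EIF4G1 and EIF4H held the most NSun6 reads. EIF4G1 encodes the scaffold that joins the cap-binding protein, the helicase and eIF3, and held 78, 131 and 118 NSun6 reads (302.4 ± 75.3 RPM) and 53, 0 and 0 NSun3 reads. EIF4G2, a related scaffold that lacks the cap-binding partner's site, had 33, 19 and 17 NSun6 reads (66.1 ± 31.9 RPM) and none in NSun3, and EIF4G3, a close relative of EIF4G1, had 2, 11 and 9 (19.7 ± 12.1 RPM). EIF4H, a stimulator of the eIF4A helicase, had 47, 88 and 51 NSun6 reads (166.8 ± 21.6 RPM) and none in NSun3. The lowest NSun6 value of EIF4G1 (240.8 RPM) was above the highest of EIF4H (188.2 RPM), so these neighbours in the order did not overlap. The helicase itself was low: EIF4A1 had 12, 8 and 0 NSun6 reads and 0, 4 and 0 NSun3 reads. Of the 30-base stretches starting in their exons 57.3% in EIF4A1 and 28.3% in EIF4H occurred once in the genome, and the part of this in their counts was not tested. The cap-binding protein gene EIF4E had no read in any library, with a mean bisulfite coverage of 6.93 reads. In its exons 51.4% of the 30-base stretches were unique, and the part of this in its counts was not tested either. Its inhibitors EIF4EBP2 (15, 14 and 14 reads) and EIF4EBP1 (16, 8 and 12 reads) had reads in all 3 NSun6 libraries, at 40.7 ± 9.32 and 35.3 ± 16.5 RPM.

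eIF3, the large complex that holds the small subunit and the mRNA together, had the most genes and an uneven spread. Its 14 genes summed to 389.9 ± 39.6 RPM, and 5 of them had reads in all 3 NSun6 libraries. EIF3I had 17, 88 and 49 NSun6 reads (133.7 ± 71.7 RPM) with replicate 1 low, and EIF3L had 37, 39 and 34 (103.0 ± 17.0 RPM) with the replicates close together. Between EIF4H, EIF3I and EIF3L the NSun6 ranges of EIF3I, 52.5 to 188.2 RPM, overlapped both of the others. EIF3A, the largest subunit, had 14, 15 and 20 reads, EIF3F had 23, 7 and 10, and EIF3E had 7, 9 and 17. EIF3C and EIF3CL, near-identical copies, had no reads, and under 1% of their 30-base stretches were unique (0.490% and 0.736%), so their counts are uncertain.

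The factors of start codon selection were lower but present in most cases. EIF1AX, which encodes eIF1A, had 19, 38 and 24 NSun6 reads (72.8 ± 12.4 RPM), EIF1 had 28, 21 and 19 (64.5 ± 20.9 RPM), and EIF1AD, a relative of eIF1A, had 12, 7 and 10. EIF2B2 and EIF2B5, subunits of the exchange factor that recharges eIF2 with GTP, had 31, 19 and 22 reads (69.5 ± 27.6 RPM) and 7, 10 and 7 reads (22 ± 0.829 RPM). All of these genes had no NSun3 read. Of the eIF2 subunits EIF2S1, the one phosphorylated under stress, had 18, 16 and 5 NSun6 reads, and of the 4 kinases that phosphorylate it EIF2AK1 had 13, 13 and 0. EIF5, which triggers GTP hydrolysis on eIF2, had 0, 8 and 19 reads.

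NSun6 reads piled up at single cytosines. Of 337 cytosines of translation factor exons with at least 1 NSun6 read, 8 in 7 genes were high-confidence (2.37%), and 23 had reads in all 3 libraries; over all nuclear protein-coding exons 2.18% of 54467 such cytosines were high-confidence, so the share here was near the background. Without NSun6 replicate 1, or without replicate 3, 4 cytosines were high-confidence, all in CTCCA. The 8 cytosines took 34.9% of the NSun6 reads placed at cytosines of these mRNAs. By the threshold, EIF1AX was the last inside (55.6, 57.7 and 39.3 RPM) and EEFSEC the first outside (43.2, 34.2 and 68.8 RPM). No cytosine was high-confidence in NSun3. All 15 strongest NSun6 cytosines had reads in all 3 NSun6 libraries and none had an NSun3 read. They were chosen by their NSun6 RPM, which in part fixed this, and the share over all high-confidence NSun6 cytosines was not computed. Only 9 of the 15 exceeded the mean NSun3 floor of 47.2 RPM, so no fold against that floor was given for the other 6.

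The 4 strongest cytosines were EIF4H, EEF2 codon 592, EIF4G1 and EIF3I. The EIF4H cytosine, 393 nt after the stop codon of a 1788-nt 3'UTR, had 46, 69 and 34 NSun6 reads (133.6 ± 19.5 RPM), or 80.1% of the gene's NSun6 reads. The EEF2 cytosine at the third base of codon 592 of 858 had 34, 49 and 54 reads (128.9 ± 41.5 RPM), 21.7% of the gene's reads. The EIF4G1 cytosine, 175 nt into a 445-nt 3'UTR, had 33, 38 and 43 reads (108.0 ± 30.2 RPM). That of EIF3I, 321 nt into a 408-nt 3'UTR, had 11, 70 and 35 reads (99.4 ± 59.3 RPM), with replicate 1 below the threshold. By the NSun6 mean against the NSun3 floor these cytosines were at least 2.83-fold, 2.73-fold, 2.29-fold and 2.11-fold lower in NSun3. Such bounds leave out the NSun6 spread, and for EIF3I NSun6 replicate 1, at 34.0 RPM, lay below that floor.

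The next 4 were closer to the threshold. EIF3L codon 265 had 34, 22 and 23 reads (75.8 ± 29 RPM, 71.8% of the gene's reads), EEF2 codon 628 had 27, 21 and 18 (62.4 ± 19.5 RPM), EIF2B2 codon 325 of 351 had 29, 10 and 18 (56.6 ± 34.1 RPM) and EIF1AX, 1013 nt into a 3781-nt 3'UTR, had 18, 27 and 12 (50.9 ± 10.1 RPM). EIF2B2 varied most between the NSun6 libraries, from 21.4 to 89.5 RPM, and every NSun6 library held reads at each of the 4 cytosines. In EIF3L, EIF2B2 and EIF1AX more than 70% of the gene's NSun6 reads lay at this 1 cytosine (71.8%, 79.2% and 70.4%), whereas EEF2 spread its reads over 111 positions.

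The shared sequence visible in the printed lines was CTCCA. Of the 8 high-confidence cytosines 6 were in CTCCA (75%, exact 95% interval 34.9% to 96.8%), each as its first base. Over all 1189 high-confidence NSun6 cytosines in nuclear protein-coding exons the share was 89.5% (87.6% to 91.2%), and of all exonic cytosines of the translation factors 1.69% lay in a CTCCA. Of the 2 exceptions EIF3L codon 265 began a CTCTA and EEF2 codon 628 a CTCAA, and EEF2 codons 729 and 174 among the 15 strongest also began a CTCTA. Over all 1189 cytosines 7.32% began a CTCTA. Among the 337 cytosines with any NSun6 read 26.1% were in CTCCA, and among the 63 with reads in at least 2 libraries 60.3%.

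Most CTCCA copies carried no read. The exons of the 70 genes held 352 copies on the transcribed strand, of which 73 (20.7%) had an NSun6 read at one of their cytosines and 6 a high-confidence one, against 11.6% with a read among 139097 copies over all nuclear protein-coding exons. EIF3I had reads at 3 of its 13 copies, and EIF4G1 at 5 of 13. EIF4B had none at 14 copies and EIF4G3 reads at 1 of 16, with mean NSun6 levels of 13.3 and 19.7 RPM. Of the 30-base stretches starting in their exons 21% in EIF4B and 98.6% in EIF4G3 occurred once in the genome, and the part of this in the empty copies of EIF4B was not tested. In folds of the bases around each copy the probability that the first cytosine was unpaired had a median of 0.83 for the 6 high-confidence copies, 0.76 for the 67 other copies with reads and 0.37 for the 279 without. Median bisulfite coverage, which depends on how much RNA was present and on where reads could be placed, moved the same way (142, 51 and 8 reads). Its part in the difference was not tested.

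**Figure D2:**
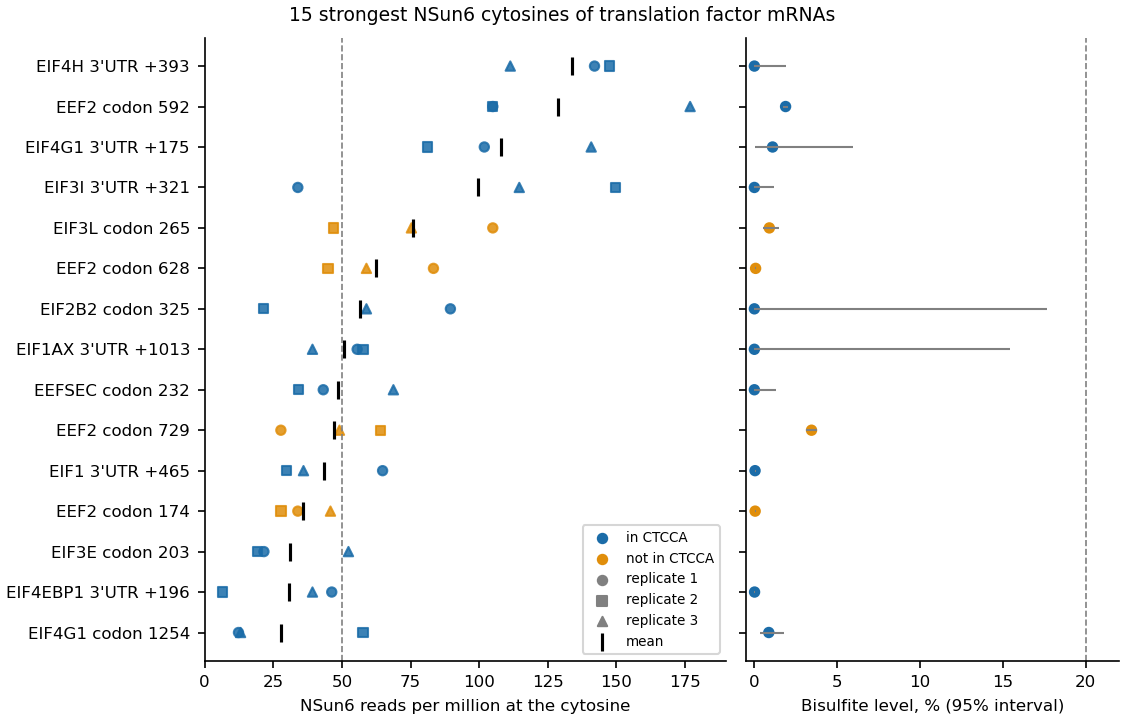
The 15 strongest NSun6 cytosines, named by codon or by distance after the stop codon in nt. Left, RPM in each NSun6 library (symbols by replicate, bar mean, dashed line 50 RPM; blue in CTCCA, orange not), and right, bisulfite level in percent with its exact 95% interval (dashed line 20%); no value is drawn for EIF3E. The levels stay at or under 3.45%, and RPM reaches 176.8. Levels and RPM are unlike measures from separate samples.

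Reads of the translation factors lay mostly in coding sequence and 3'UTRs. In NSun6, 53.0%, 56.3% and 59.3% of their exonic reads were in coding sequence (56.2% ± 3.20, SD, n = 3), 40.4% ± 2.89 in 3'UTRs and 3.37% ± 1.38 in 5'UTRs. Over all nuclear protein-coding genes 48.4% ± 0.0936 were in coding sequence. Without EEF2 the coding share of the translation factors was 43.8% ± 4.68, so the sign of the difference from all genes depended on that 1 gene.

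The few NSun3 reads lay elsewhere than the NSun6 reads. In the library labelled NSun3 replicate 1 a single 3'UTR position of EIF4G1 held 53 reads, a coding position of EEF1D 16 and a coding position of EIF3L 15, and none of the 3 had a read in the other NSun3 libraries. In replicate 2 EEF2 and EIF4A1 each had 4 reads at 1 position. The EIF4G1 position had 1 NSun6 read over the 3 libraries and the others none. Replicate 3 had no read on any translation factor, so nothing on the NSun3 side was seen in 2 libraries at the same position.

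Genes were compared between NSun3 and NSun6 in one fit over all genes with edgeR's quasi-likelihood test and Benjamini-Hochberg adjustment (adjusted p under 0.05). Only 5 of the 70 genes passed the filter on low counts, each through its NSun6 reads, so a lower NSun3 value was in part fixed by the filter and these calls are a description. Of the 5 tested 3 were called, all lower in NSun3; over all genes 92.8% of 1285 tested were called and 90.9% called lower. EIF4H had a log2 fold change of -8.17 (SE 0.89, adjusted p = 0.00136) and EIF1AX of -6.98 (SE 0.96, adjusted p = 0.00226). With all NSun3 libraries at 0 these fold changes and SEs depend on the prior count. Every SE given for a gene or cytosine was worked back from its fold change and test statistic, and was not fitted. Where all NSun3 libraries were at 0, the SE does not show how closely the fold is known. By the NSun6 mean against the 3-read floor EIF4H was at least 3.53-fold and EIF1AX at least 1.54-fold lower in NSun3, with the NSun6 spread left out. EEF2 had a log2 fold change of -3.52 (SE 0.92, adjusted p = 0.00847), lower in NSun3 than in every NSun6 library in all 3 NSun3 libraries. Without NSun6 replicate 2 or 3 the log2 fold change of EEF2 was -3.89 or -4.10 with an adjusted p of 0.0580 or 0.0660. Over its 14 alternative settings the log2 fold change ranged from -5.43 to -2.49 and the adjusted p from 7.94e-19 to 0.246, with 11 calls.

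The median log2 fold change of all tested genes was itself -7.81, and moved to -8.26 with RLE scaling, -7.73 without scaling factors and -6.99 in DESeq2. EEF2 had -3.52 there, and -5.40 with RLE scaling, -4.06 without scaling factors and -5.43 in DESeq2, so it stayed above the median by a distance that depended on the scaling (4.29 in the reported setting). EIF4H lay at -0.35 relative to the median in the reported setting. EIF3L (0.20, SE 1.39, adjusted p = 0.894) and EIF4G1 (0.91, SE 1.82, adjusted p = 0.640) were not called. Their positive values ran against the mean RPM, which was lower in NSun3 for EIF3L (40.8 against 103.0) and EIF4G1 (127.2 against 302.4), and their sign changed to negative under RLE scaling, without scaling factors, in DESeq2, with no filter, with the replicate number in the fit and without NSun3 replicate 1, the library that held all their NSun3 reads. Without that library EIF4G1 had -9.25 and EIF3L -7.70, both called, as both were under RLE scaling and EIF3L in DESeq2 (-2.35, adjusted p = 0.00216). Without NSun3 replicate 3, the library with no NSUN3 reads, 17 of the 70 genes were tested and 10 called, beside 78.8% called over all genes.

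Counts were also compared per cytosine. Only 4 cytosines of translation factors passed the filter, again through NSun6, and all 4 were called lower in NSun3 by edgeR's quasi-likelihood test, beside 88.1% called and 70.7% called lower of 1737 cytosines tested. The log2 fold changes were -7.87 (SE 1.22, adjusted p = 0.000473) for EIF4H, -7.87 (SE 1.45, adjusted p = 0.000937) for EEF2 codon 592, -7.60 (SE 1.43, adjusted p = 0.00102) for EIF4G1 and -7.04 (SE 1.43, adjusted p = 0.00146) for EIF3L codon 265, near the median of -7.19 over all cytosines. All 3 NSun3 libraries were at 0 at these cytosines, so the bounds are the floor-based folds given above for EIF4H, EEF2 and EIF4G1. For EIF3L codon 265 the NSun6 mean gave at least 1.61-fold lower in NSun3, with the NSun6 spread again left out. These calls too were in part fixed by the filter and are a description. EIF4G1 and EIF3L were called at their NSun6 cytosine and not over the whole gene. Their NSun3 reads, all from replicate 1, lay at other positions. Without NSun3 replicate 3, 13 cytosines were tested and all 13 called, beside 84.5% over all cytosines.

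NSun6 RPM followed bisulfite coverage only in part. Mean coverage is taken over all annotated exons and counts only reads that could be placed, so it is not a direct measure of mRNA abundance. Across the 70 genes the Spearman correlation between NSun6 RPM and mean bisulfite coverage was 0.44, and it was 0.54 over the 50 genes with at least 80% unique 30-base stretches and 0.67 over all nuclear protein-coding genes. These are descriptions across genes that share the libraries and their depth. EIF2B2, with a mean coverage of 74.0 reads, had 69.5 RPM, while EEF1B2, with 1992 reads, had 2.85 RPM and only 30.2% unique stretches. EIF3G, with 904.6 reads and fully unique exons, had 2.77 RPM.

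**Figure D3:**
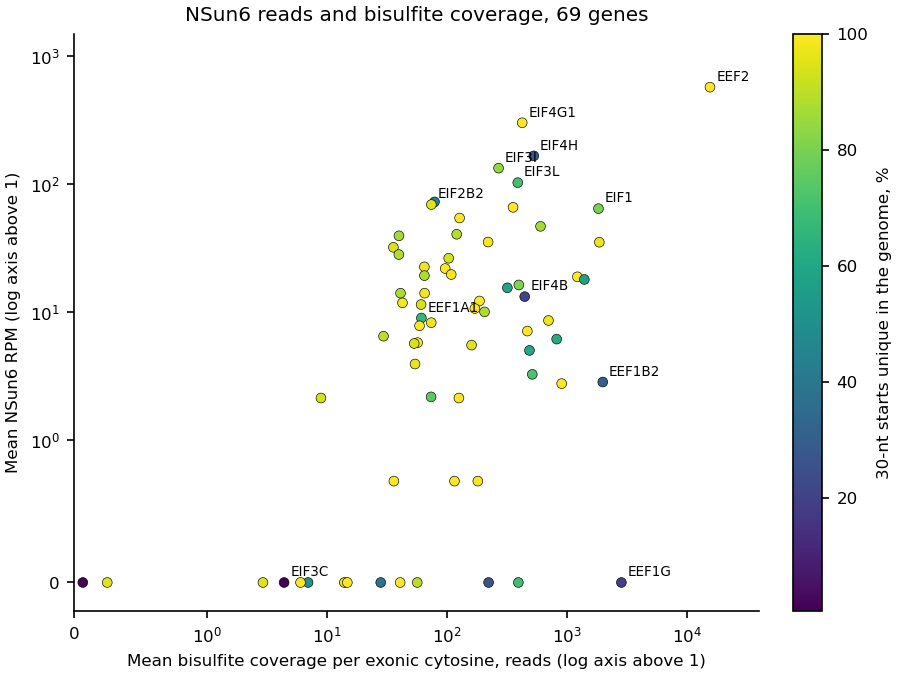
Mean NSun6 RPM against mean bisulfite coverage per exonic cytosine for 69 of the genes (both axes logarithmic above 1; colour, percent of 30-base stretches of the exons that occur once in the genome). EEF2 is highest on both axes, and EEF1G lies at 0 RPM with a coverage of 2849 reads and 18.5% unique stretches.

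Bisulfite levels at the NSun6 cytosines were low. No transfection is listed for the bisulfite samples, whereas the miCLIP cells overexpressed an enzyme. Of the 8 high-confidence cytosines 7 were covered by at least 20 reads, none of these reached 20%, 2 reached 1% and the median level was 0.0741%. Over all nuclear protein-coding exons 777 high-confidence NSun6 cytosines were covered, 20 of them (2.57%) at 20% or more and 37.6% at 1% or more, with a median of 0.324%. The level was 1.10% at EIF4G1 (1 of 91 reads, exact 95% interval 0.0278% to 5.97%) and 0.904% at EIF3L codon 265 (14 of 1549, 0.495% to 1.51%), against 0.0637% and 0.0821% over the other cytosines of each gene. EIF4H had 0 of 193 reads, EIF3I 0 of 304, EEFSEC 0 of 279 and EIF1AX 0 of 22, which by the limit of 3 counts allow levels of up to 1.55%, 0.987%, 1.08% and 13.6%, with exact 95% upper limits of 1.89%, 1.21%, 1.31% and 15.4%. The 2 samples cannot be separated in the table, so these intervals cover counting error only and the spread between samples is unknown.

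EEF2 was covered deeply enough to read small levels. Its transcript of 3158 nt had 899 exonic cytosines covered by at least 20 reads, with a median coverage of 11383 and a median level of 0.0378%. Codon 592, the strongest NSun6 cytosine of the gene, stood at 1.88% (584 of 30991 reads, 1.74% to 2.04%) and codon 729 at 3.45% (387 of 11217, 3.12% to 3.80%), the sixth and the third highest levels of the 899. Codon 628, high-confidence in NSun6 but not in CTCCA, stood at 0.0741% (16 of 21603), like the 0.0707% over the other cytosines, and codon 174 at 0.0469% (8 of 17065). Among the 721 cytosines covered by at least 1000 reads, a minimum chosen after the values were seen, codon 729 was first and codon 592 was the 4th. The second was a cytosine in the 3'UTR (2.94%, 984 of 33459) and the third lay in codon 631 (1.99%, 379 of 19069), and neither had an NSun6 read. Of the 12 cytosines over 1% 3 had NSun6 reads (25%), beside 8.12% of all covered cytosines of EEF2. At EIF1, also deeply covered, the CTCCA cytosine stood at 0.0407% (11 of 27029) with 0.0506% over the rest of the gene.

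**Figure D4:**
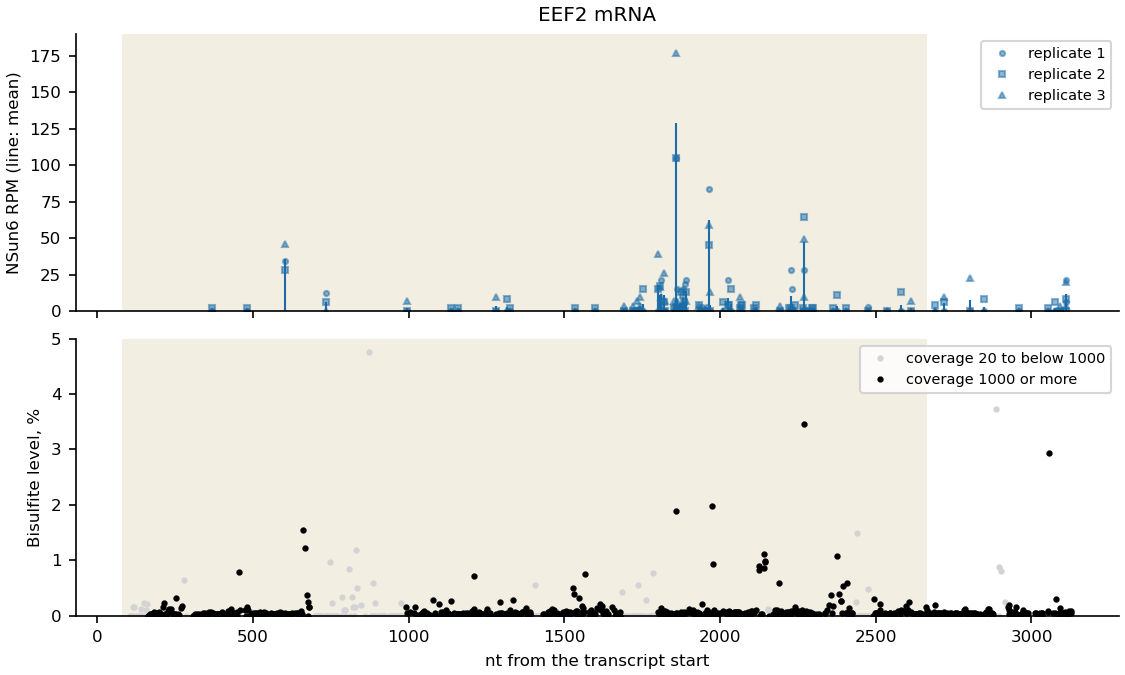
EEF2 mRNA by nt from the transcript start, with the coding sequence shaded. Top, NSun6 RPM at each cytosine (lines mean, symbols libraries); bottom, bisulfite level in percent at each covered cytosine (black, coverage of 1000 or more; grey, from 20 to below 1000). The highest line, codon 592 at 128.9 RPM, and the line of codon 729 stand over black points at 1.88% and 3.45%.

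Called bisulfite cytosines (at least 20% methylated at a coverage of at least 20) were rare and lay elsewhere. The levels count unconverted reads, and methylation and incomplete conversion cannot be told apart in these values. Of 25686 covered exonic cytosines of the translation factors 31 were called (0.121%, exact 95% interval 0.0820% to 0.171%), beside 0.149% of 4889269 over all nuclear protein-coding genes. They lay in 6 genes, with 11 of 1817 in 5'UTRs, 6 of 14951 in coding sequence and 14 of 8918 in 3'UTRs. In all genes the called shares were 0.336%, 0.0628% and 0.252%. Many were runs of neighbours. Each called cytosine was checked for a unique 30-base stretch, starting at the base after it and counted in the unconverted genome. The authors aligned bisulfite reads to a converted genome, so whether these reads had a single place was not tested. The runs followed by unique stretches are shown because their called cytosines lay side by side. Capitals mark the called cytosines.
EIF4A1 5'UTR (chr17:7477347-7477376, plus): ggtCaCCCCCttatgtcgggggtggCCtgg
EIF2AK4 codons 4 to 8 (chr15:40226400-40226428, plus): gctgggggCcgtggggCCCCCgggcgcgg

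In EIF2S3, which encodes the tRNA-binding subunit of eIF2, a cytosine 480 nt after the stop codon stood at 22.8% (520 of 2278, 21.1% to 24.6%) with no other called cytosine within 30 nt among 10 covered, and another, 347 nt after the stop codon, at 22% (67 of 305). Both of these were followed by 30-base stretches that occur once in the unconverted genome.

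In EIF4A1, 8 cytosines had levels of 34.3% to 49.3% at coverages of 65 to 70 reads, against a mean of 1397 reads over the gene's exonic cytosines. In EIF2AK4, which encodes a kinase of eIF2 that senses uncharged tRNA, 6 had levels of 23.3% to 46.9% at 30 to 32 reads. The called cytosines of both runs were followed by unique stretches, and both windows were rich in C and G, as printed. EEF1D had 2 called cytosines in 5'UTR sequence at 55.2% (32 of 58) and 54.5% (24 of 44), each without a called neighbour within 30 nt. EEF2K had 4 in its 3'UTR at 20% to 26.3%, at coverages of 25 to 52 reads. Of these, 2 were followed by unique stretches, and only the one at 20% (5 of 25, 6.83% to 40.7%) had no called neighbour within 30 nt. EIF4G1 had 1 in its 5'UTR at 22.9% (8 of 35, 10.4% to 40.1%). Within 5 nt of the 31 called cytosines miCLIP reads lay at only 1, the EIF2S3 cytosine at 22%, which had 2.

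**Figure D5:**
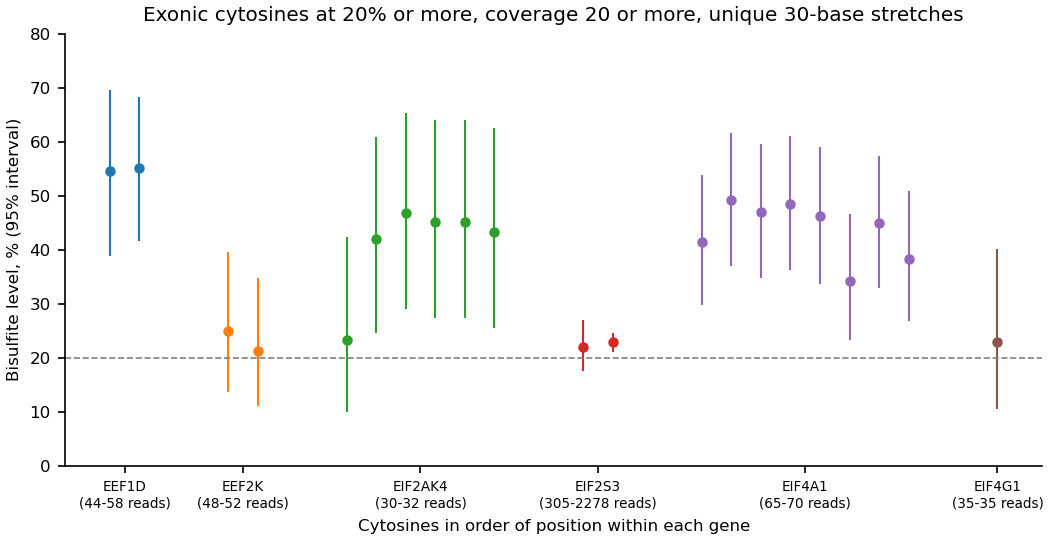
Bisulfite level in percent with exact 95% intervals at the 21 called exonic cytosines followed by 30-base stretches that are unique in the unconverted genome, in order of position within each gene, with the range of coverage under each name (dashed line 20%). The EIF2S3 levels lie at 22% and 22.8%, and those of EIF4A1 and EIF2AK4 reach 49.3% and 46.9% with wide intervals.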

How the data were processed

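The members and gene lists were chosen with earlier results of these data known. Per the labels and the study's methods, the authors mapped miCLIP reads with Bowtie to hg19 and deposited counts of reads per truncation position for each library, without a strand column; the first of each file's 2 passes over the chromosomes was taken as the plus strand. The authors used Bismark for the bisulfite reads and deposited, for every cytosine of 1 table, a percent methylated with the read counts behind it, from which levels were computed here; whether its 2 samples were pooled is not stated. The methods describe levels made with and without removal of PCR duplicates, and which of these the table holds is not given in the sources used here.

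Reads were counted in exons of GENCODE genes on GRCh37 and given to the nearest cytosine within 2 nt. RPM is reads per 1000000 listed reads. A cytosine over 50 RPM in at least 2 of 3 replicates was called high-confidence, and one at 20% or more with coverage of at least 20 methylated. edgeR 4.0.16 (quasi-likelihood, TMM, filterByExpr) compared NSun3 with NSun6, with DESeq2 1.42.0 as an alternative. In simulated counts per gene 200 of 6008 genes were changed, in both directions, and 101 of the changed genes were tested. Of these 63.4% were recovered, and 1.54% of calls were false. In the data 92.8% of the genes tested were called, nearly all lower in NSun3, so these rates do not carry over to this comparison. Folding used ViennaRNA 2.7.2. Named were genes with a high-confidence cytosine, the 20 highest in NSun6, the 5 highest in NSun3 and those with a called cytosine. Cytosines named were the 15 highest in NSun6 and the 15 called ones with most methylated reads, apart from the result not reported here. Other genes and cytosines in the text were chosen after their values were seen. A Y-linked gene was counted but not named, and 1 further result is not reported here. Intervals are exact (Clopper-Pearson, 95%) and cover counting error only.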

Additional observations from a re-analysis of the deposited data

How the results depend on the processing

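With 3 libraries a group and NSun3 libraries of few reads, counts of calls moved with the processing. Called genes numbered 3 of 5 tested in the reported setting (92.8% called over all genes), 5 of 5 with RLE scaling (97.5%), 21 of 55 with no filter (31.4%; 1 of the 21 higher in NSun3), 1 of 1 with each position counted once (83.9%), 2 of 5 with the replicate block (83.0%), and 1 of 3 to 15 of 17 when 1 library was left out (75.3% to 92.8%). Called cytosines numbered 4 of 4 (88.1% over all cytosines), 18 of 343 with no filter (4.51%; 2 of the 18 higher in NSun3), 4 of 4 with the replicate block (80.7%) and 3 of 3 to 13 of 13 when 1 library was left out (75.8% to 90.6%). Whether samples with the same replicate number were paired is not stated in the sources used here. Their deviations from the group means correlated at 0.043, 0.080 and 0.036 over 1285 genes. The median log2 fold change of these genes was -7.81, so most NSun3 counts were low and the correlations cannot settle pairing. With the replicate block EEF2 had a log2 fold change of -4.12 and an adjusted p of 0.246 in edgeR's quasi-likelihood test. NSun6 RPM of the translation factors was 3782 with each position counted once and 2115 to 2365 without 1 library, and NSun3 RPM 75.4 to 413.8. High-confidence NSun6 cytosines numbered 15 over 20 RPM, 3 when all 3 replicates had to pass and 4 to 6 without 1 library; in NSun3 they numbered 0 in every setting run. The share in CTCCA was 66.7% to 100% without 1 library. The coding share was 61.5% with 1 transcript per gene and 54.6% to 57.8% without 1 library. Called methylated cytosines numbered 91 at a coverage over 5 (0.266%, beside 0.236% over all genes), 20 at 50 or more (0.108% and 0.101%), 88 at a level of 10% (0.343% and 0.360%) and 13 at 40% (0.0506% and 0.0527%). EIF3L reversed to -2.18 (RLE), -0.75 (no scaling factors), -2.35 (DESeq2), -0.88 (no filter) and -3.43 (replicate block), and EIF4G1 to -2.34, -0.86, -2.77, -0.59 and -5.27; without 1 library EIF3L ranged from -7.70 to 0.89 and EIF4G1 from -9.25 to 1.17. The cause was not tested. The called EIF4H, EIF1AX and 4 cytosines kept their call in every setting in which they were tested. EIF4H was tested in 13 alternative settings and EIF1AX in only 9, beside 14 for EEF2. The EIF3L cytosine was tested in only 9, and those of EEF2, EIF4G1 and EIF4H in 13. Where the filter was used they passed it through their NSun6 reads, so the kept calls were in part fixed and are a description.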

Other observations

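Other genes of translation gave a wider range of NSun6 levels than the initiation and elongation factors. Of 36 listed genes for mRNA-binding partners, release and recycling factors, regulators, diphthamide and hypusine enzymes and mitochondrial factors, 12 had reads in all 3 NSun6 libraries, 26 in at least 1, and 3 in an NSun3 library. PABPC1, the poly(A)-binding protein, had 354, 633 and 288 NSun6 reads (1130 ± 207.8 RPM, SD, n = 3) and 2, 0 and 0 NSun3 reads. DPH2, an enzyme of the pathway that makes diphthamide on eEF2, had 331, 513 and 354 (1093 ± 68.8 RPM) and none in NSun3. ETF1, the release factor, had 40, 38 and 19 (89.0 ± 31.4 RPM). PPP1R15B, a phosphatase subunit that acts on eIF2, had 65.0 ± 29.3 RPM, MKNK1, a kinase of eIF4E, 57.9 ± 27.8 RPM, and LARP1, a regulator of mRNAs that encode the translation machinery, 46.3 ± 16.3 RPM, each with no NSun3 read. PABPC1 and DPH2 thus lay above EEF2, and the median of the 36 genes was 5.58 RPM. By edgeR's quasi-likelihood test 3 of the 36 passed the filter through their NSun6 reads, and all 3 (PABPC1, DPH2 and ETF1) were called lower in NSun3, beside 92.8% called and 90.9% called lower of the 1285 genes tested.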
